A study of Mus musculus with 48 samples.

Results

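10 genes for AP-1 subunits and other early-response transcription factors were followed through cultured mouse kidney slices: Fos, Fosb, Fosl1 and Fosl2 of the FOS family, Jun, Junb and Jund of the JUN family, and Egr1, Atf3 and Myc. The set is all 10 rows of the deposited count table whose Ensembl identifiers map to these symbols, out of 55487 gene identifiers. All 10 passed the filter on low counts in each of the 10 comparisons made. The kidneys came from male mice, either C57BL/6J or DBA/2J, which are the parental strains of the recombinant inbred BXD panel and carried no transgene or deletion that the labels name. In each strain there were 8 conditions with 3 libraries each, which makes 16 groups and 48 libraries. The conditions were control slices at 6 h and at 24 h, tunicamycin at 6 h and at 24 h, cyclosporin A at the same times, normoxia, and normoxia followed by hyperoxia. Tunicamycin blocks N-glycosylation in the endoplasmic reticulum, and cyclosporin A is a calcineurin inhibitor with known kidney toxicity. The titles call the normoxia slices a model of ischemia and the normoxia-hyperoxia slices a model of reperfusion, and give 24 h for both. Doses, oxygen levels and the ages of the mice are not given in the sources used here.

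The titles place the oxygen conditions in other branches of the study than the controls and drugs, so a difference between those branches and the effect of the oxygen condition cannot be told apart. The labels number the replicates as biological but do not say that slices came from separate mice. The p-values therefore measure the spread between these libraries, which may in part be technical. Libraries held between 5619309 and 25137581 counts, and the lowest total was replicate 2 of DBA/2J under normoxia-hyperoxia. Levels below are CPM, the gene's count scaled by the total count of its library. Every marker of 9 lists for kidney tubule, podocyte, endothelial, stromal and leukocyte cells was detected in every condition, while the adrenal markers summed to at most 27.2 CPM and the adipocyte markers to at most 0.312 CPM. The summed level of the 7 proximal tubule markers was 2922 to 7607 CPM in the 6 h controls, 503 to 2262 in the 24 h controls, 5574 to 14600.0 in normoxia and 264.5 to 1093 in normoxia-hyperoxia. The sum of the 7 leukocyte markers lay between 94.51 and 299.2 CPM over all libraries. Genes of the mitochondrial genome took 8.05% to 16.3% of counts in the 6 h controls, 3.39% to 7.87% in the 24 h controls, 11.8% to 25.7% in normoxia and 10.98% to 17.4% in normoxia-hyperoxia. These shares and sums moved with the conditions compared below, and their part in the results was not tested. In bulk tissue, fewer cells of a type and less RNA per cell cannot be told apart.

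AP-1 is a dimer of basic leucine zipper proteins: a FOS protein pairs with a JUN protein, and JUN proteins also pair with one another and with ATF proteins such as ATF3. Growth factors, cytokines and stress reach these genes through mitogen-activated protein kinases, which act on factors already present in the cell, so transcription starts without new protein synthesis. The transcripts are mostly short-lived, which lets their level follow the stimulus closely. FOS and FOSB are the strong early activators, whereas FOSL1 and FOSL2 are AP-1 subunits that follow later and stay longer. EGR1 is a zinc finger factor of the same early wave, ATF3 is a stress-induced factor that often represses, and MYC pairs with MAX to drive growth genes such as those of ribosome production. In kidney, this early wave is known from tubular injury and from ischemia with reperfusion.

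Positions are those of GENCODE M21 on GRCm38. Fos spans chr12:85473890-85477273, Fosb chr7:19302696-19310051, Fosl1 chr19:5447547-5455946 and Fosl2 chr5:32135801-32157842. Jun spans chr4:95049034-95052222, Junb chr8:84974484-84978718 and Jund chr8:70698949-70700616, while Atf3 spans chr1:191170296-191218039 and Myc chr15:61985391-61990374. Reads were counted over whole genes, and 4 members share exon positions with a gene on the opposite strand: Fosl1 with Ccdc85b, Jun with the antisense gene Junos, Junb with Prdx2 and Jund with the antisense gene Gm11175. The library kit keeps strand, but the strand setting used in counting is not given in the sources used here, so reads of these pairs may not be fully separated. The overlapping genes reached at most 42.9 CPM (Ccdc85b), 3.35 (Junos), 187 (Prdx2) and 4.67 (Gm11175) in any library.

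The stretches before the start sites are shown for the members in which a CREB/ATF-type motif was found, which leaves out Fosl2 and Jund. RefSeq promoters (GRCm38.p6, 250 bases before to 50 after the start) were matched for 7 of the 10 members, namely Fos, Fosb, Fosl2, Jun, Junb, Jund and Atf3. The lines below give the 150 bases before the start, 5′ to 3′, with capitals marking TGACG on either strand, TGACATCA in Jun and the forward TATAAA of Fos.
Fos: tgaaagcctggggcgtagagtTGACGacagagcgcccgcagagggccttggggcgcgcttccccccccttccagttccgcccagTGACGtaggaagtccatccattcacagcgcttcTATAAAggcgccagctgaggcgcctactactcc
Fosb: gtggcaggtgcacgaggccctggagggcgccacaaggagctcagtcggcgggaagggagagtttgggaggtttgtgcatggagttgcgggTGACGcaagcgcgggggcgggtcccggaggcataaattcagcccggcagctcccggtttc
Jun: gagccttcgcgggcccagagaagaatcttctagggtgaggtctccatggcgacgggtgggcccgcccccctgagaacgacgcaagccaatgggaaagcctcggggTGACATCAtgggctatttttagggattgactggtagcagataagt
Junb: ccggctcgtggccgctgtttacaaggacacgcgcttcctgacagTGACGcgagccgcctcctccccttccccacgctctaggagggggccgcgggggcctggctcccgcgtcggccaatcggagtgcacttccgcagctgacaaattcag
Atf3: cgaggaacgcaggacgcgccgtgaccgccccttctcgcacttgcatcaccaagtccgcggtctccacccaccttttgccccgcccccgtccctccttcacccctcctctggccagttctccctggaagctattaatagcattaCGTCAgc
These stretches are chr12:85473740-85473889 (+ strand), chr7:19310046-19310195 (- strand), chr4:95052223-95052372 (- strand), chr8:84978749-84978898 (- strand) and chr1:191183334-191183483 (- strand). The short site TGACG, searched on both strands, was present in 4 of the 7 windows of 300 bases (Fos at positions -129 and -66, Fosb at -60, Junb at -106 and Atf3 at -7 from the start) and in 20.8% of 32851 RefSeq promoters of the same length. TGACATCA was present in Jun alone among the 7, at -45 to -38, and in 3.62% of all promoters. The full site TGACGTCA, which contains TGACG, was in 0 of the 7 windows and 1.79% of all promoters. TGANTCA was in 0 of 7 and 7.81%, CACGTG in 0 of 7 and 7.15%, and the CArG box in 0 of 7 and 1.63%. Forward TATAAA was in Fos at -33 and in Junb at 1, against 8.32% of all promoters. The RefSeq starts of Atf3 and Fosb lie inside the GENCODE gene, and that of Junb lies before it. All positions given are from the RefSeq start, so those of Junb would differ if taken from the GENCODE start. Sites more than 250 bases before the start would not be seen. Matches of letters describe these windows and were not tested for binding or for a link to the levels of the members.

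In the 6 h controls the FOS family was led by Fos. Per length, as RPKM (counts scaled by exon length and by the library total), the level of Fos was 214 in C57BL/6J and 181 in DBA/2J, against 83.5 and 76.0 for Fosb, 48.6 and 45.3 for Fosl1, and 26.15 and 25.96 for Fosl2 (means of 3 libraries). The 3 JUN genes lay above Fos on that scale, with Jun at 293 and 241, Junb at 291 and 241, and Jund at 310.2 and 315 RPKM. Atf3, at 647 and 412, and Egr1, at 307 and 236 RPKM, had levels near those of the JUN genes or above, and Myc was at 38.2 and 46.1. Together the 10 genes took 0.637% (C57BL/6J) and 0.516% (DBA/2J) of all counts in 6 h controls, 0.326% and 0.333% in 24 h controls, 0.0256% and 0.0316% in normoxia, and 0.949% and 0.804% in normoxia-hyperoxia.

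**Figure D1:**
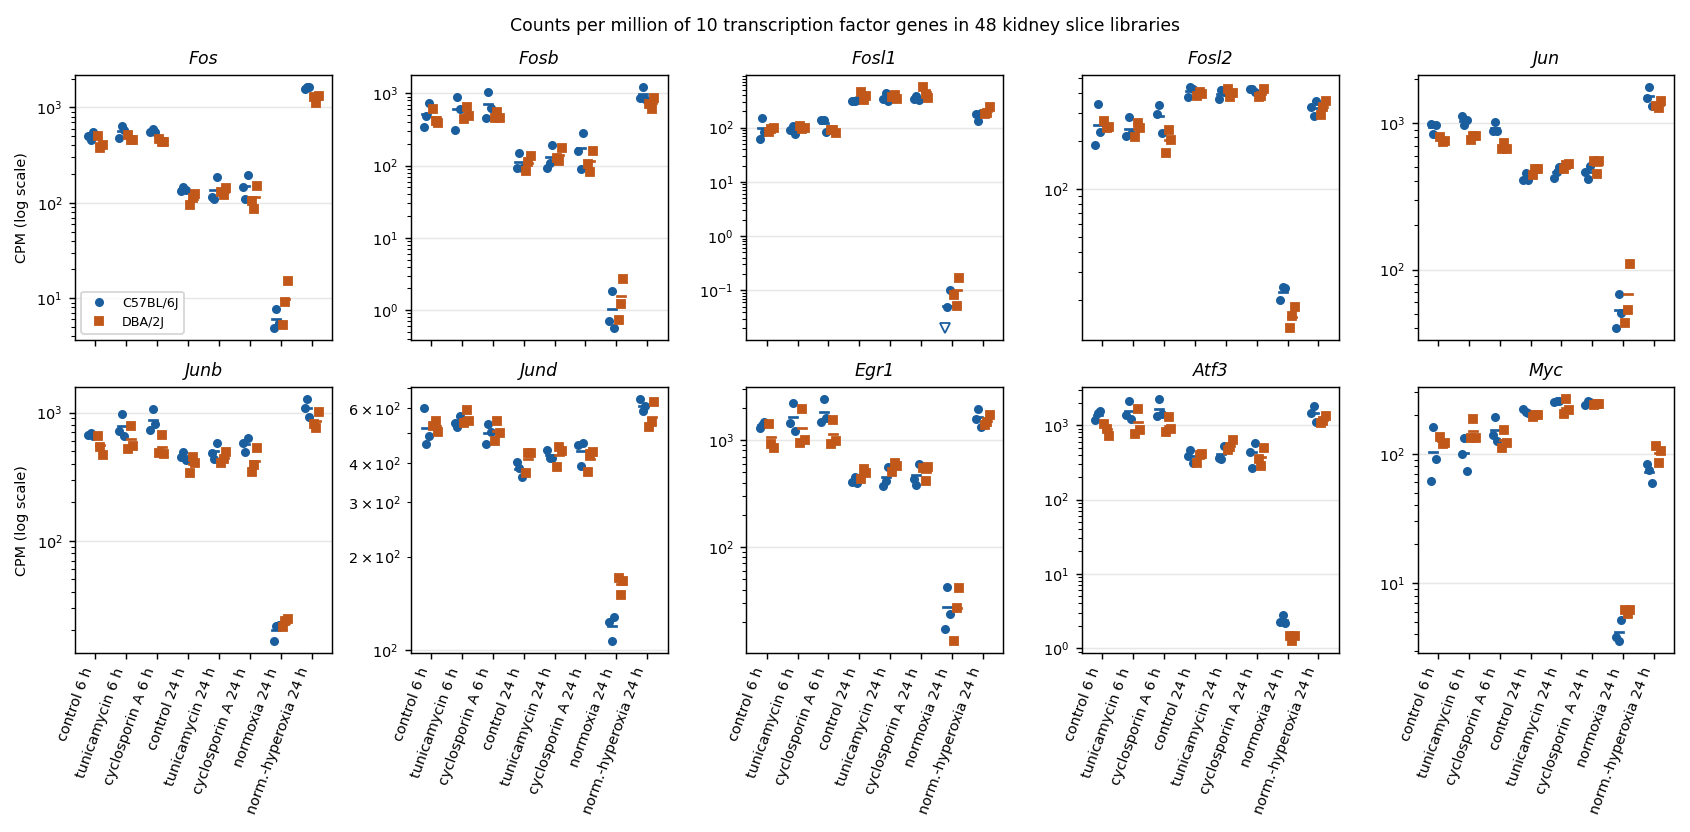
Level of each of the 10 genes in CPM (log axis) in every library, by condition; circles are C57BL/6J, squares DBA/2J, short lines the mean of 3 libraries, and the open triangle the single library with 0 counts. In every panel the 6 normoxia libraries lie below all others, and Fosl1 and Myc are higher in 24 h than in 6 h controls where Fos, Egr1 and Atf3 are lower.

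Between 6 h and 24 h in culture without treatment, the early activators fell and the late FOS genes and Myc rose. Fos, the founding member of its family, stood at 499.8, 458.5 and 554 CPM in the C57BL/6J 6 h controls and at 131, 146 and 138 CPM in the 24 h controls. In DBA/2J the corresponding levels were 502.5, 375 and 399 CPM and 94.3, 113 and 123.5 CPM. The 2 times did not overlap in either strain, with a log2 fold change of -2.12 over both strains (SE 0.0894, edgeR adjusted p = 1.17e-10). Fosb, which makes the long AP-1 activator and a shortened stable form from the same gene, fell further, by 2.38 on the log2 scale (SE 0.214, edgeR adjusted p = 1.06e-06). Its 6 h controls ranged from 345 to 731 CPM and its 24 h controls from 84.2 to 148 CPM.

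Fosl1 moved the other way. It held 61.3, 152 and 83.4 CPM in C57BL/6J and 82.9, 93.5 and 99.8 CPM in DBA/2J at 6 h, and 309.6, 305 and 325 CPM and 444, 325 and 375 CPM at 24 h. Every 24 h library lay above every 6 h library, with a log2 fold change of 1.64 (SE 0.192, edgeR adjusted p = 1.03e-05). Fosl2, its closest relative, rose by less, with a log2 fold change of 0.46 (SE 0.121, adjusted p = 0.0036) from a range of 188 to 343 CPM at 6 h and one of 375 to 438.5 CPM at 24 h. Myc rose from 61.2, 159.8 and 90.4 CPM to 220.3, 212 and 206 CPM in C57BL/6J and from 134, 119 and 122 CPM to 191.5, 201 and 198 CPM in DBA/2J. Its log2 fold change was 0.63 (SE 0.182, adjusted p = 0.00844), and in DBA/2J alone the change did not pass the threshold (0.50, adjusted p = 0.112). The C57BL/6J 6 h controls were spread widely for all 3 of these genes, with replicate 2 the highest and replicate 1 the lowest.

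The partners fell by less than Fos. Jun, the classic partner of FOS proteins, went from 987, 841 and 977 CPM to 410.1, 455 and 408 CPM in C57BL/6J and from 803, 747 and 756 CPM to 443, 485 and 486 CPM in DBA/2J, a log2 fold change of -1.13 (SE 0.066, adjusted p = 1.81e-09). Junb and Jund fell by 0.73 (SE 0.0896) and 0.61 (SE 0.0746) on the same scale. Egr1 fell by 1.64 (SE 0.115, adjusted p = 1.21e-08), with 833 to 1463 CPM at 6 h and 398 to 529 CPM at 24 h, and Atf3 by 1.76 (SE 0.124, adjusted p = 1.67e-08), with 717 to 1556 CPM at 6 h and 310.5 to 461 CPM at 24 h. In all, 3 members were higher and 7 lower at 24 h, where 34.7% of all 16962 genes tested were higher and 37.4% lower. With changes that common among all genes, the number of members called says little, and the sizes and directions carry the description. The interaction, the difference between the strains' changes (DBA/2J minus C57BL/6J), was called for 0 members by edgeR (0.69% of all genes). By edgeR 3 members (Jun, Egr1 and Atf3) had an unadjusted p under 0.05, as did 2242 of the 16962 genes. DESeq2 called 1 member and 339 of all genes.

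The make-up of the FOS family changed accordingly. At 6 h Fos provided 58.1% ± 8.2 of the family's summed RPKM in C57BL/6J and 55.0% ± 1.4 in DBA/2J, and 21.5% ± 0.54 and 16.1% ± 2.8 at 24 h (SD, n = 3). Fosl1 provided 12.9% ± 5.7 and 14.1% ± 2.9 at 6 h and 56.4% ± 2.7 and 63.8% ± 5.6 at 24 h (SD, n = 3), so that the leading FOS transcript was Fos at 6 h and Fosl1 at 24 h in both strains. The summed level was 373 ± 51 and 328 ± 45 RPKM at 6 h, and 273 ± 10 and 293 ± 23 RPKM at 24 h (SD, n = 3). Jund gained share within the JUN family, from 34.6% ± 2.6 to 40.98% ± 1.7 in C57BL/6J and from 39.7% ± 2.2 to 43.5% ± 0.78 in DBA/2J (SD, n = 3). Shares were described and not tested.

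**Figure D2:**
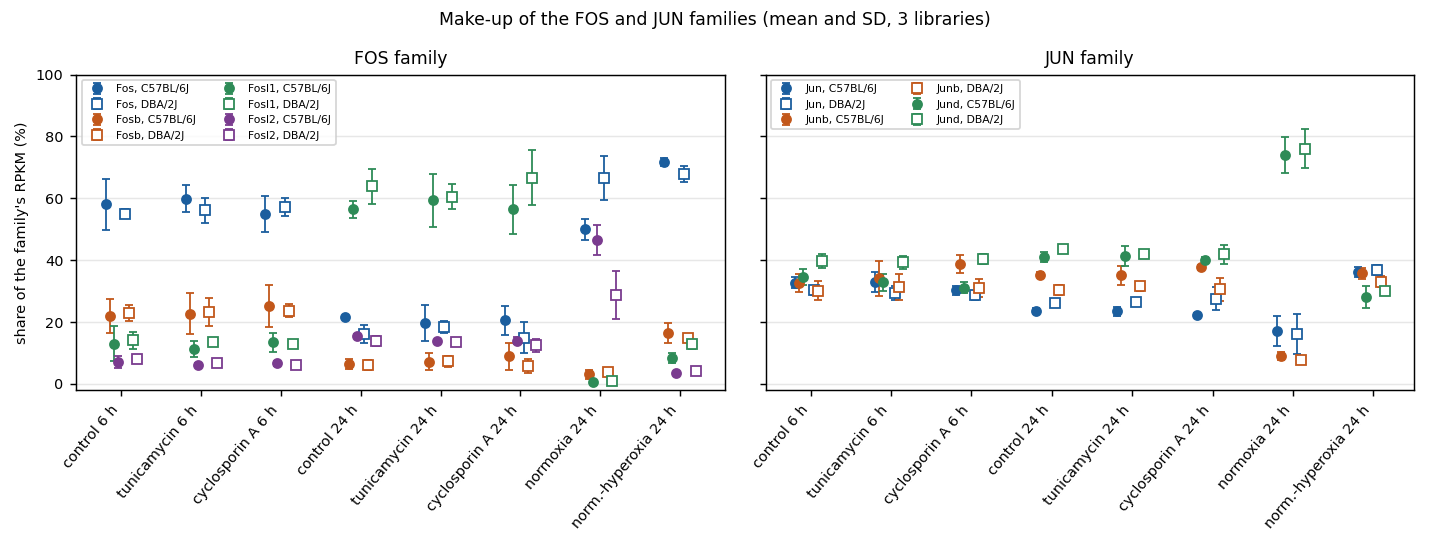
Share of each gene in the summed RPKM of the FOS family (left) and the JUN family (right) by condition, as mean and SD of 3 libraries; filled circles are C57BL/6J and open squares DBA/2J. By the mean, Fos leads at 6 h and in both oxygen conditions, Fosl1 leads in all 24 h controls and drug groups, and Jund reaches 73.9% and 76.1% of the JUN family in normoxia. In C57BL/6J normoxia Fos and Fosl2 lie within each other's spread, and Fosl2 (2.44 RPKM) was above Fos (2.32 RPKM) in replicate 3.

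Tunicamycin and cyclosporin A did not move the set detectably at 6 h. Egr1 stood at 1440, 2228 and 1210 CPM with tunicamycin and 1459, 2393 and 1595 CPM with cyclosporin A in C57BL/6J, against 1302, 1367 and 1463 CPM in the controls. In DBA/2J it stood at 930.0, 1962 and 989 CPM and 919, 1527 and 975 CPM, against 1423, 922 and 833 CPM. Drug and control ranges overlapped in both strains for both drugs. The log2 fold changes of the 10 members ran from -0.09 to 0.27 for tunicamycin and from -0.05 to 0.32 for cyclosporin A, none of them called. Over both strains, edgeR called 0 members and 0.0% of all genes for either drug at 6 h, with 0 members at an unadjusted p under 0.05. DESeq2 called 0 members too, and 0 and 45 of all genes. The interaction was likewise called for 0 members and 0.0% of genes with each drug, with 0 members at an unadjusted p under 0.05 and 0 called by DESeq2. By library, Junb lay above all controls with cyclosporin A in C57BL/6J (log2 fold change 0.41 in that strain, edgeR unadjusted p = 0.0395, adjusted p = 1), and Fosl2 and Jun below them in DBA/2J, and every other member overlapped its controls.

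Among the members, the drug libraries at 6 h were spread in a shared way. With cyclosporin A, replicate 2 was the highest of the 3 C57BL/6J libraries for 10 of 10 members, and the highest of the DBA/2J libraries for 8. With tunicamycin it was the highest for 8 of 10 members in each strain. Atf3 shows the size of this spread, with 1355, 2089 and 1223 CPM and 768, 1663 and 869 CPM under tunicamycin. In the 6 h controls replicate 1 was the highest for 8 of 10 members in DBA/2J, and in C57BL/6J replicates 2 and 3 for 4 members each. The ranks were counted for the members only, whose patterns are alike, and not for all genes. A spread of this set and one of whole libraries can therefore not be told apart here. The labels do not say whether slices with the same number came from 1 mouse.

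**Figure D3:**
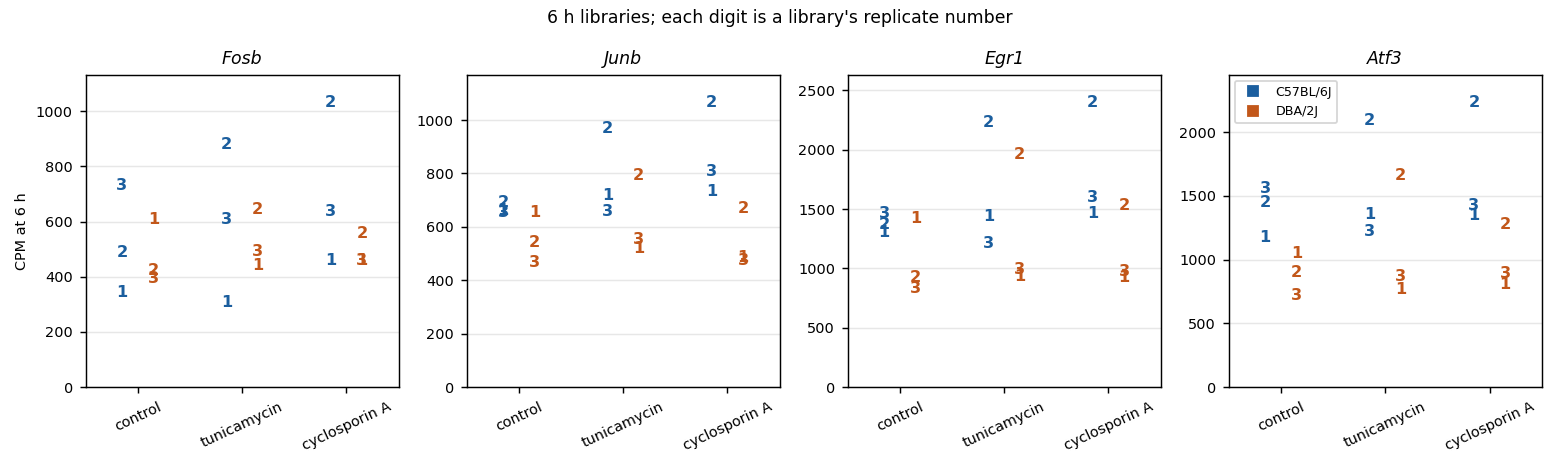
CPM of Fosb, Junb, Egr1 and Atf3 in the 18 libraries at 6 h; each digit is the replicate number of a library, in blue for C57BL/6J and orange for DBA/2J. Replicate 2 lies at the top of all 4 drug groups for each of these genes, and not of the DBA/2J controls.

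At 24 h the drug effects on the set were small as well. Myc was the nearest to a change: it stood at 253, 256 and 258 CPM with tunicamycin and 237, 255 and 252 CPM with cyclosporin A in C57BL/6J, above all 3 controls at 220.3, 212 and 206 CPM. In DBA/2J it stood at 202, 264 and 218 CPM and 238, 244 and 241 CPM, again above 191.5, 201 and 198 CPM. The log2 fold changes were 0.24 for tunicamycin (SE 0.0614, edgeR adjusted p = 0.0758) and 0.23 for cyclosporin A (SE 0.0426, adjusted p = 0.228), and neither passed the threshold. DESeq2 called Myc for both drugs, with adjusted p = 0.0318 and 0.000741, and for tunicamycin edgeR called it without the filter on low counts (0.00785) or without replicate 1 of DBA/2J tunicamycin (0.0305). Atf3, a known target of the unfolded protein response, was at 359, 353 and 530.5 CPM and 471, 505 and 625 CPM with tunicamycin, against 385, 461 and 314 CPM and 310.5, 395.5 and 412 CPM in the controls, a log2 fold change of 0.31 (SE 0.144, adjusted p = 0.394). Its ranges overlapped in C57BL/6J and did not in DBA/2J, where the log2 fold change was 0.54 (adjusted p = 0.401).

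For tunicamycin at 24 h edgeR called, over both strains, 0 members and 1.38% of all genes. Jun and Myc had an unadjusted p under 0.05, as did 2174 of all 16905 genes tested. For cyclosporin A edgeR called 0 members and 0.0% of genes. Myc had an unadjusted p under 0.05, as did 1107 of all 16887 genes tested. DESeq2 called 526 of all genes for tunicamycin and 22 for cyclosporin A. The interaction was called for 0 members and 0.0% of genes with either drug, with 0 members at an unadjusted p under 0.05 and 0 called by DESeq2. Fos was at 109 to 185 CPM and 86.8 to 197 CPM in the tunicamycin and cyclosporin A libraries, against 94.3 to 146 CPM in the controls. Both drug comparisons use the same control libraries, as do the comparisons of normoxia and normoxia-hyperoxia with the 24 h controls below.

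Normoxia, the condition titled ischemia, held the lowest level of every member in both strains. Fosl1 was at the edge of detection: its 3 C57BL/6J libraries held 0, 1 and 2 counts and its 3 DBA/2J libraries 2, 1 and 4, which is 0 to 0.168 CPM. From the summed counts, 24 h controls were 6499-fold higher in C57BL/6J (exact 95% interval 2224 to 31520.0) and 3672-fold higher in DBA/2J (1782 to 9133). These intervals cover counting error only. Per library, Fosl1 in the 24 h controls was never below 304.7 CPM.

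Atf3 and Fosb came next. Atf3 stood at 2.23, 2.82 and 2.19 CPM in C57BL/6J and 1.47, 1.25 and 1.47 CPM in DBA/2J, a log2 fold change of -7.41 against the 24 h controls (SE 0.139, edgeR adjusted p = 6.48e-15). Fosb stood at 0.7, 1.83 and 0.561 CPM and 0.737, 1.2 and 2.69 CPM, with -6.18 (SE 0.312). Both were thus within a few CPM of 0 in all 6 libraries. Myc was at 3.56 to 6.22 CPM (-5.07, SE 0.0776), Fosl2 at 13.3 to 24.2 CPM (-4.15, SE 0.0773) and Junb at 16.5 to 24.4 CPM (-4.03, SE 0.0908). Fos was at 4.86, 7.72 and 5.46 CPM and 5.2, 9.12 and 15.2 CPM (-3.74, SE 0.215), and Egr1 at 17.1, 42.4 and 23.4 CPM and 13.2, 26.9 and 41.3 CPM (-3.77, SE 0.296). Within C57BL/6J replicate 2 was the highest for both genes, and within DBA/2J replicate 3.

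Jund stood apart by its small change. It held 123.4, 107 and 128 CPM in C57BL/6J and 171, 151 and 167 CPM in DBA/2J, and its log2 fold change was -1.23 (SE 0.0678, adjusted p = 7.6e-11), against -2.63 (SE 0.22) for Jun. As a share of the JUN family's summed RPKM, Jund was at 73.9% ± 5.8 in C57BL/6J and 76.1% ± 6.4 in DBA/2J (SD, n = 3). In the FOS family the shares of Fos and Fosl2 were 49.98% ± 3.4 and 46.5% ± 4.8 in C57BL/6J and 66.6% ± 7.1 and 28.7% ± 7.8 in DBA/2J, at a summed level of 5.08 ± 0.94 and 6.10 ± 2.6 RPKM (SD, n = 3). All 10 members were called lower than in the 24 h controls, as were 39.7% of all genes, and no normoxia library overlapped a 24 h control for any member. Overlap was looked at for the members only, here and in the other comparisons, so it has no share of all genes beside it. Against the 6 h controls all 10 were again called lower, where 32.9% of all genes were, with log2 fold changes from -1.88 (Jund) to -10.26 (Fosl1, a fitted value that depends on the prior count).

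Normoxia-hyperoxia, the condition titled reperfusion, held the highest mean level of Fos, Fosb, Jun, Junb and Jund in both strains. Its libraries overlapped those of the 6 h groups for Fosb, Junb and Jund. For Jund in DBA/2J the mean was 564 CPM, against 559 CPM with tunicamycin at 6 h. Fos reached 1574, 1630 and 1649 CPM in C57BL/6J and 1277, 1115 and 1306 CPM in DBA/2J, about 11.7-fold and 11.2-fold the mean of the 24 h controls. Over the 24 h controls this was a log2 fold change of 3.68 (SE 0.0841, edgeR adjusted p = 1e-12), and each library lay above every library of the other 7 conditions. Fosb reached 878, 1242 and 837.5 CPM and 703, 606 and 871 CPM, 3.10 above the 24 h controls (SE 0.184, adjusted p = 3.7e-08).

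Among the partners, Jun reached 1490, 1774 and 1317 CPM and 1306, 1258 and 1405 CPM (1.84, SE 0.0835, adjusted p = 1.47e-10). Junb was higher by 1.36 (SE 0.104) and Jund by 0.73 (SE 0.0681) on the log2 scale. Egr1, at 1582, 1965 and 1328 CPM and 1379, 1459 and 1707 CPM, and Atf3, at 1470, 1838 and 1106 CPM and 1071, 1156 and 1337 CPM, were both higher by 1.97 (SE 0.103 and 0.141). Their levels lay in the range of the 6 h slices, whose highest libraries reached 2393 CPM for Egr1 and 2229 CPM for Atf3 with cyclosporin A.

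Fosl1, Fosl2 and Myc did not share this rise over the 24 h controls. Fosl1 was at 176, 133 and 182.5 CPM and 176, 189.7 and 242 CPM, below every 24 h control, with a log2 fold change of -0.75 (SE 0.0991, adjusted p = 1.06e-05). Myc was at 82.7, 74.9 and 59.3 CPM and 115, 85.1 and 106 CPM, also below every 24 h control (-1.08, SE 0.0906, adjusted p = 8.74e-08). Fosl2, at 287 to 357 CPM, had a log2 fold change of -0.15 that was not called (SE 0.0671, adjusted p = 0.0611). It was called without replicate 1 of the C57BL/6J or of the DBA/2J 24 h controls, or without replicate 3 of either strain's normoxia-hyperoxia libraries (0.0192 to 0.0425). In total 7 members were higher and 2 lower than the 24 h controls, where 34.1% of all genes were higher and 34.1% lower. The interaction was called for 0 members by edgeR and by DESeq2 (1.43% of all genes by edgeR). Jun and Myc had an unadjusted p under 0.05 by edgeR, as did 2657 of all 17256 genes tested.

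Against the 6 h controls, 6 members were higher in normoxia-hyperoxia and 0 lower, with 22.4% of all genes higher and 22.5% lower. Fos had the largest difference (1.59, SE 0.0891, adjusted p = 2.32e-08), followed by Fosl1 (0.90, SE 0.195), Fosb (0.75, SE 0.187), Jun (0.72, SE 0.0882), Junb (0.65, SE 0.11) and Egr1 (0.36, SE 0.134, adjusted p = 0.0435). The call of Egr1 ended when any of 10 of the 12 libraries was left out (adjusted p 0.0515 to 0.116), and held only without replicate 1 of the DBA/2J 6 h controls or replicate 3 of the C57BL/6J normoxia-hyperoxia libraries. Atf3 (0.23, adjusted p = 0.185), Jund (0.15, 0.141), Fosl2 (0.33, 0.0511) and Myc (-0.43, 0.103) were not called. Leaving out replicate 1 of the C57BL/6J 6 h controls made calls of Jund (0.0301) and Myc (-0.57, 0.0144). Leaving out replicate 2 made a call of Fosl2 (0.000195) and brought Myc to -0.19 (0.224). In a single fit of all libraries Egr1 was not called (0.202), and Fosl2 was called higher (0.00871) and Myc lower (0.0249). Without the filter on low counts Fosl2 (0.00154) and Myc (1.06e-06) were called in the same directions, and DESeq2 called Fosl2 (0.0427) and not Myc (0.0536). The value of Atf3 fell to 0.12 without replicate 2 of the C57BL/6J normoxia-hyperoxia libraries. The interaction was called for 0 members by edgeR and by DESeq2, with 0 at an unadjusted p under 0.05, and for 0.232% of all genes.

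Set directly against normoxia, normoxia-hyperoxia was higher for all 10 members, as for 37% of all genes. The log2 differences were 11.11 for Fosl1 (a fitted value), 9.40 for Atf3, 9.30 for Fosb, 7.44 for Fos, 5.76 for Egr1, 5.41 for Junb, 4.48 for Jun, 4.02 for Fosl2, 4.00 for Myc and 1.98 for Jund. The summed FOS level was 960 ± 29 and 774 ± 76 RPKM in normoxia-hyperoxia, with Fos at 71.7% ± 1.4 and 67.8% ± 2.5 of it (SD, n = 3, C57BL/6J and DBA/2J). Jun, Junb and Jund made up 36.2%, 35.8% and 28.1% of the JUN family in C57BL/6J and 36.9%, 33.1% and 29.99% in DBA/2J.

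**Figure D4:**
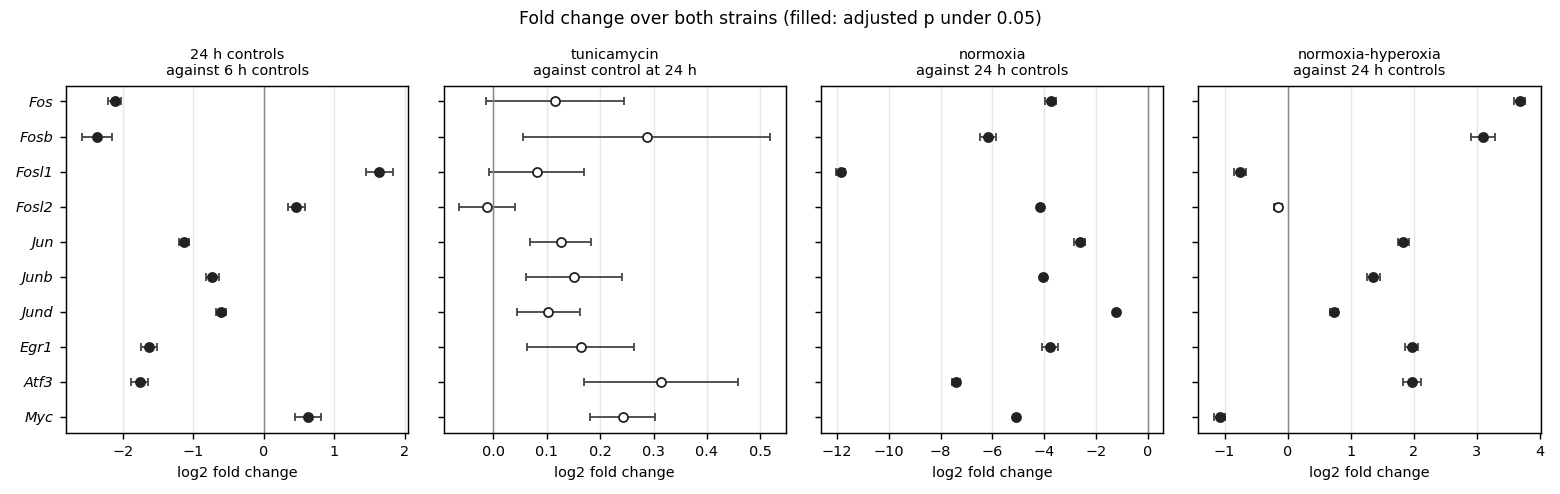
Log2 fold change over both strains (points) with its SE (bars) for each gene in 4 comparisons, with a scale of its own for each panel; filled points passed an adjusted p of 0.05. Fosl1 and Myc lie opposite to Fos, Egr1 and Atf3 in the comparison of times and of normoxia-hyperoxia, all 10 lie below 0 in normoxia, and no point is filled for tunicamycin.

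The strains differed in the 6 h controls for 5 members, all lower in DBA/2J, where 26.2% of all genes differed in either direction. Atf3 showed the largest difference, with 1176, 1451 and 1556 CPM in C57BL/6J against 1051, 897 and 717 CPM in DBA/2J, which do not overlap (log2 difference -0.80, SE 0.172, edgeR adjusted p = 0.00379). Jun was lower by 0.43 (adjusted p = 0.0036), with no overlap either. Egr1 (-0.53, 0.0254), Junb (-0.42, 0.0237) and Fos (-0.39, 0.0281) were also called, with 1 DBA/2J library, replicate 1, near the C57BL/6J level. Without that replicate the difference of Egr1 was -0.79. The calls of Egr1 and Junb ended without replicate 2 or 3 of either strain's 6 h controls (adjusted p 0.0544 to 0.12), and that of Fos without C57BL/6J replicate 3 or DBA/2J replicate 2 or 3 (0.104 to 0.126). In these libraries the mitochondrial share of counts was 15.4% ± 0.78 in C57BL/6J and 8.16% ± 0.15 in DBA/2J (SD, n = 3), and its part in the result was not tested. In a single fit of all 48 libraries Atf3 kept its call (adjusted p = 0.0291), and Jun (0.0584), Junb (0.0703), Fos (0.171) and Egr1 (0.218) lost theirs.

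In the 24 h controls only Fos was called between strains, where 22.2% of all genes were: 131, 146 and 138 CPM against 94.3, 113 and 123.5 CPM (-0.36, SE 0.122, adjusted p = 0.0475). That call ended when any of 6 libraries was left out, namely each C57BL/6J 24 h control, replicates 1 and 2 of the DBA/2J 24 h controls or replicate 3 of the DBA/2J 6 h controls (0.0591 to 0.201). In normoxia 4 members were called against 46.8% of all genes. Jund (0.52, adjusted p = 0.000911) and Myc (0.60, 0.0191) were higher in DBA/2J, and Fosl2 (-0.45, 0.00563) and Atf3 (-0.70, 0.0441) lower, with no overlap between the strains for any of the 4. Myc lost its call without replicate 1 or 2 of C57BL/6J or replicate 1 of DBA/2J normoxia (0.0636 to 0.0862). Atf3 lost its call without any single normoxia library or without replicate 1 of DBA/2J normoxia-hyperoxia (0.051 to 0.153). In normoxia-hyperoxia Junb was called, at 1078, 1267 and 923 CPM against 818, 752 and 1016 CPM, with 25.7% of all genes (-0.44, SE 0.144, adjusted p = 0.0372). It lost the call without replicate 1 or 2 of either strain's normoxia-hyperoxia libraries or replicate 2 of DBA/2J normoxia (0.0526 to 0.162). The single fit of all libraries also ended the calls of Fos in the 24 h controls (0.256), Atf3 (0.152) and Myc (0.135) in normoxia and Junb in normoxia-hyperoxia (0.0926).

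The response itself differed between strains for few members. The fall to normoxia from the 24 h controls was smaller in DBA/2J for Myc (interaction 0.75, SE 0.149, adjusted p = 0.00339), Junb (0.51, SE 0.165, 0.0463) and Jund (0.46, SE 0.134, 0.028), where 17% of all genes had an interaction. Without any of 10 of the 12 libraries the call of Junb ended (0.0551 to 0.212, held without DBA/2J 24 h control replicate 2 or C57BL/6J normoxia replicate 3), and that of Jund without any of 8 (0.0535 to 0.159, held without C57BL/6J normoxia replicate 1 or 3 or DBA/2J normoxia replicate 2 or 3). From 6 h controls to normoxia Jund had an interaction of 0.61 (SE 0.156, 0.0449; 3.66% of all genes), lost without any of 10 libraries (0.0599 to 0.126, held without C57BL/6J 6 h control replicate 1 or 2). Between normoxia and normoxia-hyperoxia the difference was smaller in DBA/2J for Fos (-1.27, SE 0.388, 0.0427), Junb (-0.70, SE 0.212, 0.0328) and Jund (-0.74, SE 0.147, 0.00377), where 18.2% of all genes had an interaction. The call of Fos ended without any of 10 libraries (0.0581 to 0.0999, held without C57BL/6J normoxia replicate 2 or DBA/2J normoxia replicate 1) and that of Junb without any of 8 (0.0501 to 0.106, held without normoxia replicate 3 of C57BL/6J or 1 of DBA/2J, or normoxia-hyperoxia replicate 3 of either strain). Without replicate 3 of DBA/2J normoxia the interaction of Fos was -0.81, and without replicate 1 of the DBA/2J 24 h controls those of Junb and Jund between the 24 h controls and normoxia were 0.31 and 0.30. In a single fit of all 48 libraries the interactions with the 24 h controls were not called for Myc (0.67, adjusted p = 0.239), Junb (0.43, 0.339) or Jund (0.39, 0.0663), nor was that of Junb between normoxia and normoxia-hyperoxia (-0.61, 0.133). With RLE scaling the calls of Junb with the 24 h controls (0.0643), Jund with the 6 h controls (0.0508) and Fos (0.052) ended too. Of 17 alternatives in all, 5 kept the call of Fos and 7 that of Jund with the 24 h controls. Between normoxia and normoxia-hyperoxia Jund kept its call whichever library was left out. In normoxia the mitochondrial share was 23.9% ± 1.5 in C57BL/6J and 12.3% ± 0.53 in DBA/2J (SD, n = 3), and its part in these interactions was not tested.

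Ordered by mean level, normoxia came last for all 10 members in both strains, with no overlap with the group above it. How many of all genes had this order was not counted. For Fos the order above it was normoxia-hyperoxia, then the 3 groups at 6 h, then the 3 control and drug groups at 24 h, and these blocks did not overlap while neighbours within a block did. Jun had the same blocks, and in DBA/2J its cyclosporin A group at 6 h and its controls at 24 h also stood below their neighbours. Fosb and Junb had the same order of blocks with normoxia-hyperoxia overlapping the 6 h groups, and for Junb in DBA/2J the 6 h and 24 h groups overlapped too. Jund had that order as well, with normoxia-hyperoxia overlapping the 6 h groups in both strains and the 6 h and 24 h groups apart in DBA/2J only. For Egr1 and Atf3 normoxia-hyperoxia and the 6 h groups formed 1 chain of overlapping neighbours above the 24 h groups. Fosl1 and Fosl2 had the 24 h control and drug groups on top, then normoxia-hyperoxia, then the 6 h groups, the last 2 blocks overlapping in C57BL/6J and not in DBA/2J. For Myc the order was the 24 h groups, the 6 h groups and normoxia-hyperoxia, with the last 2 overlapping in both strains.

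The likeness of patterns was described by Pearson's r of mean log2 CPM over the 16 groups, a description over groups that share library depth between genes. Fosl1, Fosl2 and Myc were close to one another (0.961 to 0.991), and Fos, Fosb, Jun, Junb, Jund, Egr1 and Atf3 among themselves (0.931 to 0.994), whereas pairs across these 2 groups ran from 0.632 (Fos and Myc) to 0.913 (Junb and Fosl2). All of these values come from the same libraries and carry no p. Of 12247 genes compared, those nearest to Fos were Zfp36 (0.987), which encodes the mRNA decay factor tristetraprolin, and Irs2 (0.982). Nearest to Fosl1 were Sprr2g (0.996), a small proline-rich protein gene, and Tgif1 (0.994). Nearest to the other members were Itpkc (0.993) and Noct (0.987) for Fosb, Ankrd1 (0.995) and Dusp8 (0.994) for Fosl2, Socs3 (0.991) and Ocln (0.989) for Jun, Pim1 (0.996) and Pard6b (0.995) for Junb, Erf (0.986) and Itpkc (0.982) for Jund, Itpkc (0.991) and Zfp36l1 (0.989) for Egr1, Ifrd1 (0.996) and Gpr3 (0.995) for Atf3, and Nyap1 (0.990) and Adm (0.987) for Myc.

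Related genes were described in lists beside the members, to be read against the shares of all genes called: 34.7% higher and 37.4% lower with time, 42.4% and 39.7% in normoxia, and 34.1% and 34.1% in normoxia-hyperoxia, the last pairs against the 24 h controls. Of 25 other immediate early genes, 5 were higher and 14 lower at 24 h than at 6 h (median log2 fold change -0.28, all genes -0.02), led by Arc (-2.28, SE 0.283) and Nr4a1 (-1.75, SE 0.169). In normoxia 1 was higher and 24 lower than in the 24 h controls (median -2.47, all genes 0.05). The largest changes were those of Gadd45b (-6.53, SE 0.107), a stress sensor gene, and the kinase phosphatase gene Dusp5 (-5.75, SE 0.135). In normoxia-hyperoxia 20 were higher and 2 lower than in the 24 h controls (median 0.93, all genes 0.0036), with Klf2 at 2.74 (SE 0.0888) and Arc at 1.96 (SE 0.265). In each of the 3 comparisons the larger count lay in the direction of Fos and Egr1.

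Of 12 other leucine zipper partners, 4 were higher and 6 lower at 24 h (median -0.23, all genes -0.02), led by Maf (-2.18, SE 0.115) and Batf (-1.34, SE 0.232). In normoxia 1 was higher and 8 lower (median -0.88), with Maff at -6.16 (SE 0.0663) and Maf, the exception, at 3.11 (SE 0.108). In normoxia-hyperoxia 8 were higher and 4 lower (median 0.77), led by Batf (1.79, SE 0.242) and Batf2 (1.54, SE 0.229). Of 23 upstream kinases and factors, 8 were higher and 7 lower at 24 h (median -0.0049), which is near the shares of all genes. In normoxia 7 were higher and 15 lower (median -0.36), and in normoxia-hyperoxia 8 and 6 (median 0.02). Their largest changes were Map2k6 (-1.08, SE 0.131) and Map3k5 (-0.99, SE 0.0697) with time, Map2k3 (-2.60, SE 0.0648) and Map2k1 (-2.02, SE 0.0589) in normoxia, and Map3k5 (1.59, SE 0.0633) and Rps6ka5 (1.18, SE 0.179) in normoxia-hyperoxia.

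Of 12 factors that decay AU-rich transcripts, among which the mRNAs of Fos and Myc are known to be, 6 were higher and 2 lower at 24 h (median 0.14), so that about as large a share was called as of all genes (72%). Zfp36 itself fell by 2.07 (SE 0.117), and the decapping gene Dcp2 rose by 0.91 (SE 0.106). In normoxia 1 was higher and 10 lower (median -0.58), led by Zfp36 (-2.69, SE 0.0694) and Zfp36l1 (-1.84, SE 0.0892), and in normoxia-hyperoxia 3 were higher and 6 lower (median -0.10), led by the same genes (2.75, SE 0.128, and 1.14, SE 0.108). Of 12 genes of the MAX network, of which 11 were tested with time and in normoxia-hyperoxia, 3 were higher and 5 lower at 24 h (median -0.07), again near the share of all genes, 5 and 6 in normoxia (median -0.31), and 6 and 4 in normoxia-hyperoxia (median 0.29). Mlxipl, the carbohydrate response factor gene, led with time (-2.23, SE 0.153) and in normoxia (3.98, SE 0.12), followed by Mga (1.21, SE 0.0632) and Mxd3 (1.89, SE 0.422). In normoxia-hyperoxia Mycl (1.59, SE 0.219) and Mxd4 (1.08, SE 0.0674) led. Of the EGR corepressor genes Nab1 and Nab2, Nab2 fell with time (-0.62, SE 0.0921), both fell in normoxia (-1.05 and -1.47), and 0 of the 2 was called in normoxia-hyperoxia (-0.02 and 0.13).

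Textbook targets were mostly higher at 24 h than at 6 h, and mostly lower in both oxygen conditions than in the 24 h controls. Of 14 AP-1 targets, 12 were higher and 1 lower at 24 h than at 6 h (median 1.92), led by the matrix metalloproteinase genes Mmp3 (4.08, SE 0.353) and Mmp10 (3.03, SE 0.308). All 14 were lower in normoxia (median -5.83, which stays at -5.83 with the genes at 0 counts set to their bound). Il6 held 0 counts in DBA/2J normoxia and Mmp10 0 counts in normoxia of both strains. Against a floor of 3 counts over the group, Il6 in DBA/2J was at least 3317-fold lower than in the 24 h controls. For Mmp10 that bound was at least 70.3-fold (C57BL/6J) and 189-fold (DBA/2J) lower. With 2 counts in C57BL/6J normoxia, Il6 was 1921-fold lower there (exact 95% interval 531 to 15860.0). In normoxia-hyperoxia 3 AP-1 targets were higher and 11 lower than in the 24 h controls (median -1.09), led by Mmp3 (-3.64, SE 0.263) and the EGF receptor ligand gene Areg (-3.34, SE 0.175). The 3 that were higher, named after their values were seen, were Mmp13, Hbegf and Spp1.

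All 15 MYC targets were higher at 24 h than at 6 h (median 1.15), led by Cad (2.17, SE 0.0741), which encodes the enzyme that starts pyrimidine synthesis, and the ribosome assembly gene Nop56 (1.71, SE 0.0928). In normoxia 14 of 15 were lower (median -1.83), led by Rrp12 (-2.80, SE 0.0697) and Nop58 (-2.78, SE 0.073). In normoxia-hyperoxia all 15 were lower than in the 24 h controls (median -1.15), led by Cad (-2.19, SE 0.0694) and Srm (-2.15, SE 0.0871). Against the 6 h controls, normoxia-hyperoxia had 6 AP-1 targets higher and 1 lower (median 0.41), and 4 MYC targets higher and 3 lower (median -0.02). Of all genes, 22.4% were higher and 22.5% lower in that comparison (median 0.02), so the number called in either list says little. With tunicamycin at 24 h, the genes called in any of these 8 lists were Plau of the AP-1 targets (-0.52, SE 0.105, adjusted p = 0.034) and Srm of the MYC targets (0.46, SE 0.0804, adjusted p = 0.0142). Of all genes, 1.38% were called with tunicamycin at 24 h. The lists were chosen with earlier results of these data known and got no test of their own.

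**Figure D5:**
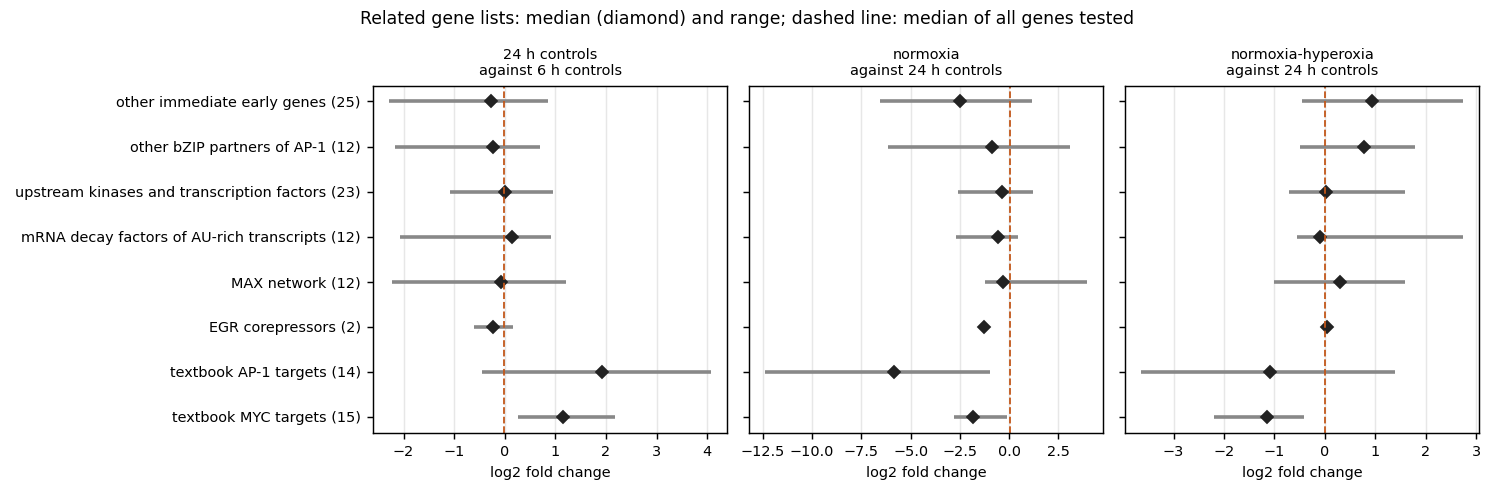
Median (diamond) and range (line) of the log2 fold change over both strains in 8 lists of related genes, with the list size in parentheses and the median of all genes tested as a dashed line. The AP-1 and MYC target lists lie to the right with time in culture and to the left in both oxygen conditions, and the other immediate early genes lie to the left in normoxia and to the right in normoxia-hyperoxia.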

How the data were processed

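The authors deposited raw counts per gene, made with STAR 2.7.9a and featureCounts 1.5.1 on GRCm38, per the submitters' processing notes. The strand setting and annotation release are not given in the sources used here. Counts were tested with edgeR 4.0.16 (quasi-likelihood, TMM scaling, filterByExpr, robust) in R 4.3.3, over all genes that passed the filter, with 4 groups of 3 libraries per fit and Benjamini-Hochberg adjusted p under 0.05 as the call. Contrasts averaged both strains, and the interaction was DBA/2J minus C57BL/6J. CPM used the total count of each library, and RPKM the exon length of GENCODE M21. Symbols were found for 55141 of 55487 identifiers. The members and lists were chosen with earlier results of these data known. Named list genes are the 2 with the largest called change per list and comparison. The edgeR fit over both strains was tried on counts simulated for tunicamycin at 24 h. Alternatives were DESeq2 1.42.0, RLE scaling, no filter, 1 fit of all groups, a replicate block, and leaving out each library.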

Additional observations from a re-analysis of the deposited data

Results flagged for a closer look

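Among the members, 7 responses differed between the strains by the interaction term of edgeR's quasi-likelihood test (DBA/2J minus C57BL/6J). Between 24 h controls and normoxia these were Junb (0.51), Jund (0.46) and Myc (0.75), between 6 h controls and normoxia Jund (0.61), and between normoxia and normoxia-hyperoxia Fos (-1.27), Junb (-0.70) and Jund (-0.74), all as log2 differences. Of all genes, 17%, 3.66% and 18.2% had an interaction in these comparisons, in that order. Only the call of Jund between normoxia and normoxia-hyperoxia held under all 17 alternatives. Groups of 3 libraries were not searched for single libraries far from the others.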

How the results depend on the processing

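All members called over both strains with time and in normoxia kept their calls whichever library was left out (10 of 10 each), and the count in normoxia-hyperoxia ran from 9 to 10 against the 24 h controls and from 5 to 7 against the 6 h controls. Of 1995 values for single members under alternatives, 1838 kept direction and side of the threshold, 107 lost a call, 17 gained one and 33 changed sign; the cause was not tested. Counts of members with an interaction follow, under each alternative that changed them. With time the count of 0 became 2 without the filter and 1 by DESeq2, and 0 to 2 leaving out a library. For normoxia against 24 h controls 3 became 6 without the filter, 2 with RLE and 1 in a single fit, which called Fos in place of the 3 (1 to 3). For normoxia against 6 h controls 1 became 0 with RLE, 5 without the filter, 2 by DESeq2 and 2 with a replicate block (0 to 2). For normoxia-hyperoxia 0 became 2 without the filter against 24 h controls, and against normoxia 3 became 5 without the filter, 2 with RLE and 2 in a single fit (1 to 3). Strain differences went from 5 to 1 in a single fit at 6 h (2 to 5), from 1 to 0 at 24 h (0 to 1), from 4 to 7 without the filter in normoxia (2 to 4), and from 1 to 6 without the filter and 0 in a single fit in normoxia-hyperoxia (0 to 2). For tunicamycin at 24 h 0 became 1 without the filter, by DESeq2 and with the replicate block (0 to 1), each time Myc, and for cyclosporin A at 24 h 1 by DESeq2.

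Sign changes were all in uncalled drug comparisons. For Fosl1 with tunicamycin at 6 h the log2 value was 0.001 without the filter, 0.0017 in a single fit and 0.0477 with the replicate block, and -0.1269 to 0.2325 leaving out a library. At 6 h the ranges were -0.0253 to 0.3268 (Fosb), -0.1753 to 0.0622 (Fosl2) and -0.0164 to 0.3536 (Myc) with tunicamycin, and -0.0046 to 0.364 (Fosl1), -0.1379 to 0.1081 (Fosl2) and -0.0571 to 0.0323 (Jund) with cyclosporin A. At 24 h they were -0.0269 to 0.1867 (Fos) and -0.0402 to 0.0154 (Fosl2) with tunicamycin, and -0.0554 to 0.17 (Fos), -0.0401 to 0.0138 (Fosl2), -0.0271 to 0.1641 (Egr1) and -0.0833 to 0.1908 (Atf3) with cyclosporin A.

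Same-numbered libraries were taken as pairs only if the residual correlation of all 6 pairs passed 0.1, which no comparison reached. The correlations ran from -0.0228 to 0.0856 with time, but were all positive for normoxia against 6 h controls (0.0667 to 0.2566) and tunicamycin at 6 h (0.0301 to 0.3126), with 5 pairs over 0.1 in each, and 4 pairs passed for tunicamycin at 24 h (-0.1077 to 0.2162), where the replicate block called Myc (adjusted p = 0.0469). With the replicate block the member counts were 10 with time, 10 in normoxia, and 9 and 5 in normoxia-hyperoxia against 24 h and 6 h controls. Egr1 lost its call against the 6 h controls in that fit.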
